A study of Mus musculus with 29 samples.

Results

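A set of 10 genes of interleukin-1, TNF and inflammasome signalling was followed through 3 RNA-seq experiments in which the microRNA miR-99b-5p was inhibited. The genes were chosen by name (Il1a, Il1b, Il1rn, Il18, Tnf, Nlrp3, Nlrc4, Pycard, Casp1 and Gsdmd) and mapped to the Ensembl identifiers of the count tables, where 10 of 10 were found among 48709 genes. The treatment was either anti-miR-99b, a locked nucleic acid inhibitor of miR-99b-5p, or sc-control, an inhibitor of the same chemistry without a target. In the first experiment the inhibitors were injected in lipid nanoparticles into the prefrontal cortex (PFC) of male C57BL/6J mice aged 3 months, with 1 mouse per library (3 anti-miR-99b, 3 sc-control). In the second, primary microglia of CD1 pups at postnatal day 1 were treated in culture (4 anti-miR-99b, 4 sc-control). These cells had been grown from mixed glia with medium conditioned by L929 cells, a source of CSF1, and shaken off. In the third, primary microglia treated in the same way were placed on cortical neurons of CD1 embryos (day 17.5), and RNA of the whole co-culture was sequenced (7 anti-miR-99b, 8 sc-control). There the microglia were treated before the co-culture, and the labels name no treatment of the neurons. The question was whether lower miR-99b-5p goes with higher expression of inflammatory genes, in tissue, in microglia alone and in microglia together with neurons.

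The innate immune cells of the brain, microglia, respond to danger signals in 2 steps that these genes span. A first signal, through NF-kB, raises transcription of the cytokines Il1a, Il1b and Tnf and of the sensor Nlrp3. A second signal makes a sensor such as NLRP3 or NLRC4 assemble with the adaptor ASC (Pycard) and the protease caspase-1 (Casp1) into an inflammasome, and caspase-1 then cleaves pro-IL-1β, pro-IL-18 and gasdermin D (Gsdmd), whose fragment opens pores in the membrane. The receptor antagonist encoded by Il1rn binds the IL-1 receptor without signalling. Much of this pathway is set by protein cleavage, which RNA counts do not show.

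The inhibited microRNA and the letters that can pair with it come first, since they define the treatment. The mature mmu-miR-99b-5p (RefSeq, GRCm38.p6, chr17:17830194-17830215, plus strand) has 22 bases, and capitals mark its seed, bases 2 to 8.
mmu-miR-99b-5p: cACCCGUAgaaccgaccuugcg
A 3′ UTR pairs with the whole seed where it holds the letters TACGGGT. Of 21039 protein-coding genes with an annotated 3′ UTR, 250 (1.19%) held them in at least 1 transcript. Among the 10 genes 1 did. Tnf held the match in transcript Tnf-201 (GENCODE M21, chr17:35199406-35199412, minus strand), which starts at base 736 of a 3′ UTR of 767 bases and ends 25 bases before the transcript's end. In the window below the capitals mark the match.
Tnf 3′ UTR, chr17:35199395-35199423, minus strand: tgtaatcgcccTACGGGTcattgagagaa
Of the 2 Tnf transcripts with a 3′ UTR, Tnf-201 held the match and the other, which ends earlier, did not. The shorter 6-letter match ACGGGT was present in 5.84% of all genes with a 3′ UTR, and beside Tnf in 1 of 2 Pycard transcripts. Il1a, Il1b, Il1rn, Il18, Nlrp3, Nlrc4, Casp1 and Gsdmd held neither. These matches describe the sequence only.

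The libraries held between 21324156 and 37901110 counted reads. Levels are given as CPM, a gene's reads scaled to a common library size after TMM normalization within each experiment. Defining microglia markers were present in every group. Their sum over 15 markers reached 12504–13215 CPM in the microglia, 562–770 CPM in the PFC and 160–200 CPM in the co-cultures, and neuron markers, here 8 genes, summed to 7835–8145 CPM in the co-cultures. Among these markers Siglech stayed at 0.183 CPM in the sc-control microglia, and P2ry12, Tmem119, Gpr34 and Siglech stayed under 1 CPM in the co-cultures.

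**Figure D1:**
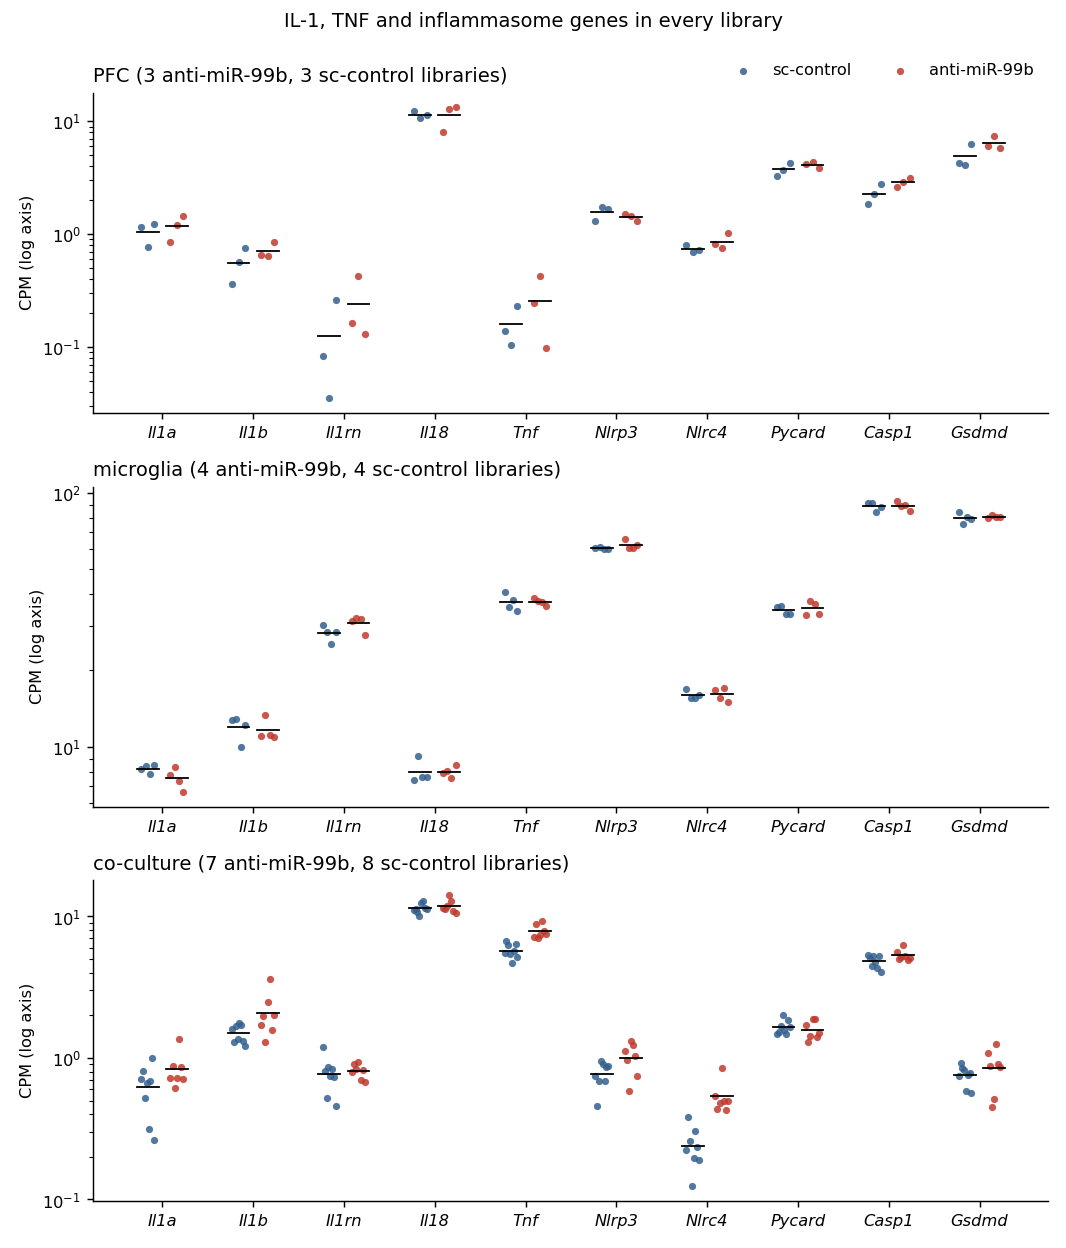
CPM of the 10 genes in each library (dots, log axis) with the group mean (line), for the PFC, the microglia and the co-cultures; sc-control in blue and anti-miR-99b in red. In the co-cultures the 7 anti-miR-99b libraries lie above all 8 sc-control libraries for Tnf and Nlrc4, and in the other 2 experiments the groups overlap for every gene.

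The level of the 10 genes differed widely between the experiments, and this sets how precisely each could be compared. Per kilobase of exon, Casp1 was highest in sc-control microglia, at 59.3 ± 2.39 CPM per kb (SD, n = 4), above Gsdmd (33.6 ± 1.49), Tnf (22.6 ± 1.74), Nlrp3 (14.9 ± 0.123), Pycard (9.09 ± 0.361), Il18 (7.73 ± 0.802), Il1b (6.27 ± 0.70), Il1rn (5.08 ± 0.369), Il1a (4.16 ± 0.152) and Nlrc4 (3.33 ± 0.133). In this order the ranges of Pycard and Il18 and of Il1b and Il1rn overlapped, and the other neighbours did not. In the sc-control co-cultures Il18 was highest per kilobase (11.1 ± 0.856, n = 8), followed by Tnf (3.50 ± 0.421) and Casp1 (3.21 ± 0.325), whose ranges overlapped. Nlrc4 was lowest there, at 0.0499 ± 0.0164 CPM per kb. In the sc-control PFC Il18 was again highest (11.1 ± 0.857, n = 3), and Tnf (0.0973 ± 0.0402) and Il1rn (0.0230 ± 0.0216) were lowest.

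Il18 stood apart from the other 9 genes in where it was expressed. The sc-control co-cultures held it at 11.4 CPM and the sc-control PFC at 11.5 CPM, which is 143% and 144% of its level in sc-control microglia (7.97 CPM), and each of these libraries was above every sc-control microglia library. The other 9 genes reached 0.946–15.5% of their microglia level in the co-cultures, with Tnf at 15.5%, Il1b at 12.5%, Il1a at 7.55%, Casp1 at 5.42% and Gsdmd at 0.946%. The 15 microglia markers had a median of 1.04% by the same measure. In the PFC Tnf stood at 0.430% and Il1rn at 0.452% of the microglia level, while the marker median was 4.27%. The experiments were normalized separately and differ in strain and age, so these shares are given without a test.

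In the co-cultures, Tnf and Nlrc4 rose after anti-miR-99b. Both passed the threshold (adjusted p-value under 0.05 and log2FC beyond 0.1), which 0.846% of the 16193 genes tested did as higher and 0.556% as lower. The count of 2 of 10 is a description, since Nlrc4 passed the filter on low counts only through its anti-miR-99b libraries, of which 7 of 7 reached the filter's level of 0.362 CPM, against 1 of 8 sc-control libraries; for the other 9 genes at least 6 of 8 sc-control libraries reached it. No other member passed, and 9 of the 10 had a log2FC above 0, against 51.6% of all genes tested. The members' median log2FC was 0.26, and that of all genes tested was 0.0025. The microglia markers of these libraries moved the same way, by 0.20 in mean log2 level, and in RNA from whole cultures more cells of a type and more RNA per cell cannot be told apart. All p-values for genes here come from edgeR's quasi-likelihood test and are adjusted by the Benjamini-Hochberg method over all genes tested in the experiment.

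Tnf encodes the cytokine TNF-α. The 8 sc-control co-cultures ranged from 4.67 to 6.72 CPM with a median of 5.62, on 119–244 reads. The 7 anti-miR-99b co-cultures ranged from 7.06 to 9.24 CPM with a median of 7.58, on 175–278 reads. The lowest anti-miR-99b library was above the highest sc-control library, so the groups did not overlap, which held for 0.58% of all genes tested. Tnf was 1.37 times as high after anti-miR-99b (95% confidence interval 1.23–1.53; log2FC 0.46 ± 0.07 SE, adjusted p-value = 0.00117), with 7.90 ± 0.837 CPM (SD, n = 7) against 5.73 ± 0.690 CPM (n = 8). Libraries came from 4 sequencing lanes, and within each lane the mean log2 level of Tnf was higher after anti-miR-99b, by 0.37 in lane 4, 0.35 in lane 5, 0.35 in lane 6 and 0.48 in lane 7. Leaving out any 1 library gave a log2FC between 0.41 and 0.49, and the call stayed each time.

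Nlrc4 encodes a sensor that, with NAIP proteins, assembles an inflammasome on bacterial flagellin and secretion system proteins. It was close to the limit of detection in the co-cultures. Only 1 of 8 sc-control libraries reached the filter's level, against 7 of 7 anti-miR-99b libraries. Its fold, interval, p-values and separation of groups are therefore a description. The 8 sc-control libraries held 3–10 reads each (0.124–0.384 CPM, median 0.231), and the 7 anti-miR-99b libraries 10–20 reads (0.430–0.851 CPM, median 0.498). Again no sc-control library reached the lowest anti-miR-99b library, and groups did not overlap for 0.58% of all genes tested. The mean was 0.534 ± 0.145 CPM against 0.240 ± 0.0788 CPM, or 2.17 times as high (95% confidence interval 1.59–2.96; log2FC 1.12 ± 0.22 SE, adjusted p-value = 0.00623). The highest value, 0.851 CPM, was that of replicate 7, and over the fits that left out 1 library the log2FC lay between 0.99 and 1.23 with every adjusted p-value at 0.0181 or below. With log2(CPM + 0.5), which shrinks values this low, the difference was 0.30, 0.51, 0.75 and 0.45 within lanes 4 to 7. DESeq2 set no adjusted p-value for Nlrc4 because of its low mean count.

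**Figure D2:**
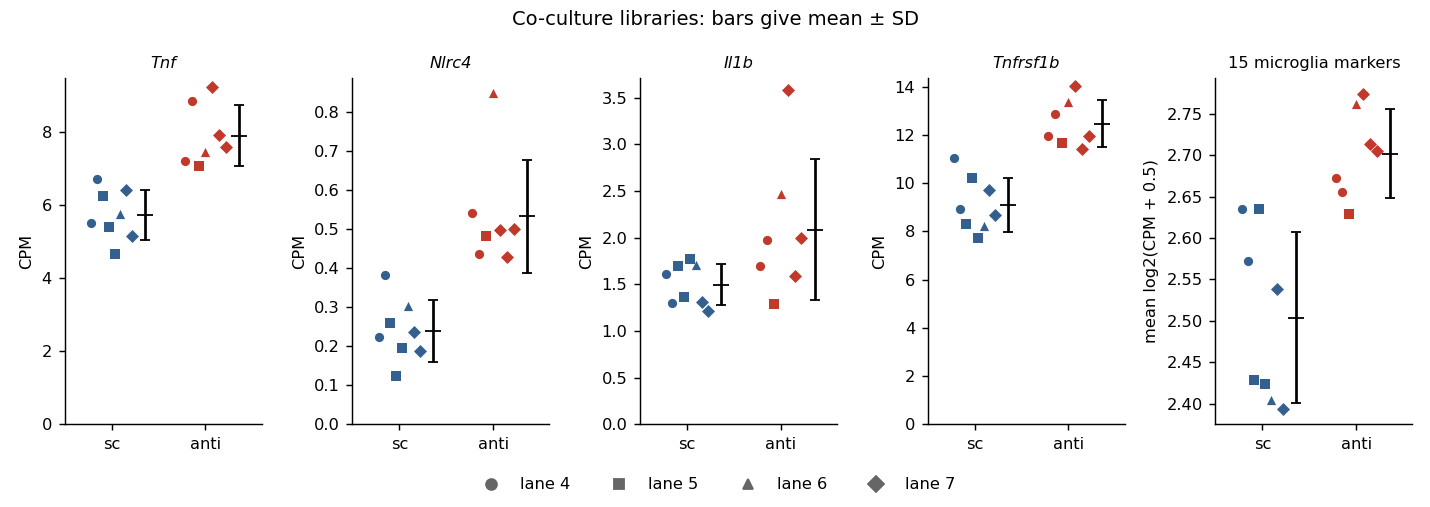
Values of each co-culture library for Tnf, Nlrc4, Il1b and Tnfrsf1b (CPM) and for the mean log2(CPM + 0.5) of 15 microglia markers; symbols give the sequencing lane and bars the mean ± SD of 8 sc-control (blue) and 7 anti-miR-99b (red) libraries. Tnf, Nlrc4 and Tnfrsf1b separate by treatment in every lane, Il1b does not, and the marker level is also higher after anti-miR-99b (2.63–2.77 against 2.39–2.64).

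The 250 bases before the annotated starts of Tnf and Nlrc4 are shown because these were the members called in the co-cultures (RefSeq, GRCm38.p6, both 5′ to 3′ on the minus strand). For Nlrc4 that call is a description, and whether the 2 genes vary together was not tested. Capitals mark the letters TATAAA.
Tnf, chr17:35202008-35202257: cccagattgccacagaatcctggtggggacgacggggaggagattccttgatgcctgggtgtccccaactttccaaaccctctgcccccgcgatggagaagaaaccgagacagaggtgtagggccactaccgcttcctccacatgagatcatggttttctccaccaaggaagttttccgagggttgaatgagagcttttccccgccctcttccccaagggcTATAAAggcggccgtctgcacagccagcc
Nlrc4, chr17:74459109-74459358: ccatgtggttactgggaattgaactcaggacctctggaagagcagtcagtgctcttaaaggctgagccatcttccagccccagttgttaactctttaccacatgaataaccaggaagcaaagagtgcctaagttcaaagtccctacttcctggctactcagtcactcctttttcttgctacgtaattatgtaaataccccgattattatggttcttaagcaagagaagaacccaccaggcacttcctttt
The letters TATAAA, searched on both strands, begin 29 bases before the start of Tnf, and 12.4% of 32851 annotated promoter windows of the same length held them. They also begin 32 bases before the start of Il1a and 31 before that of Il1b, and are not in the Nlrc4 window. On the opposite strand they begin in the window of Il18, 175 bases before its start.

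The remaining cytokine genes did not pass. Il1b, the precursor of IL-1β, ranged from 1.21 to 1.77 CPM (median 1.49) in the sc-control co-cultures and from 1.29 to 3.59 CPM (median 1.98) after anti-miR-99b. Of the 7 anti-miR-99b libraries 4 lay above all sc-control libraries and the other 3 within their range. Its log2FC was 0.48 ± 0.17 (SE; unadjusted p = 0.00814, adjusted p-value = 0.174 by edgeR), and within lanes the log2 difference was 0.26, -0.23, 0.42 and 0.66 in lanes 4 to 7. Il1a, the other IL-1 agonist, was at 0.838 ± 0.248 CPM against 0.620 ± 0.245 CPM (log2FC 0.40, 95% confidence interval -0.06 to 0.86). Il1rn was at 0.810 ± 0.0963 against 0.770 ± 0.225 CPM (log2FC 0.07, -0.28 to 0.41), and Il18 at 11.9 ± 1.24 against 11.4 ± 0.883 CPM (log2FC 0.05, -0.07 to 0.17). For Il18 the interval leaves room for a rise of at most 1.13 times, whereas for Il1a and Il1rn it is several times wider.

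Of the inflammasome genes beside Nlrc4, none passed. Nlrp3, the sensor with the broadest range of triggers, was at 1.00 ± 0.261 CPM after anti-miR-99b and 0.770 ± 0.161 CPM in sc-control (log2FC 0.36 ± 0.17 SE, unadjusted p = 0.0458, adjusted p-value = 0.367 by edgeR), with 5 of 7 libraries above all of the sc-control libraries. Casp1 was at 5.34 ± 0.486 against 4.81 ± 0.487 CPM (log2FC 0.14 ± 0.07 SE, adjusted p-value = 0.391). Gsdmd had a log2FC of 0.17 (95% confidence interval -0.21 to 0.55) and Pycard one of -0.08 (-0.29 to 0.14). Among the inflammasome genes the one furthest from 0, Nlrc4, was also the one with the fewest reads.

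Microglia markers were higher after anti-miR-99b in the same co-cultures. Their mean log2 level was 2.63–2.77 in the anti-miR-99b and 2.39–2.64 in the sc-control libraries, and 6 of 7 anti-miR-99b libraries were above all of the sc-control libraries. Of 14 markers tested 6 were called higher and 0 lower, against 0.846% and 0.556% of all genes tested, and the median log2FC was 0.29. The 6 were Cx3cr1 (log2FC 0.39), Csf1r (0.34), Olfml3 (0.45), Trem2 (0.70), Tyrobp (0.37) and C1qa (0.34). In all 12 of the 14 lay above 0, and Itgam (-0.24) and Sall1 (-0.099) lay below 0 and were not called. Sall1 in the sc-control co-cultures stood at 77.9% of its microglia level, where the marker median was 1.04%. The Tnf value of 0.46 lies within the range of all 14, -0.24 to 0.70, and above their median of 0.29. The Nlrc4 value of 1.12 lies above that range. Neither position tests a cause. From the lists of other myeloid cells, Ms4a7 (0.50) and Csf3r (0.63) rose as well, and both were also abundant in the sc-control microglia cultures, at 243 and 237 CPM. The other border macrophage markers tested, Mrc1 (0.04) and Pf4 (0.0033), did not pass, and 7 of 8 neutrophil markers were under 1 CPM in the co-cultures, with S100a9, Retnlg and Ngp at 0. Summed neuron markers lay between 7929 and 8061 CPM after anti-miR-99b, inside the sc-control range. Summed astrocyte markers lay between 2220 and 2356 CPM after anti-miR-99b and between 2239 and 2417 CPM in sc-control, so the ranges overlapped. When each gene was set against the markers of its own library, in an analysis added after the values were seen and given without a test, the log2 difference of Tnf went from 0.43 to 0.23, with 3 of 7 libraries above all of the sc-control libraries, and that of Nlrc4 from 0.48 to 0.28, with 4 of 7. By the same measure Il1b went from 0.33 to 0.14, Nlrp3 from 0.23 to 0.03, Casp1 from 0.14 to -0.06 and Il18 from 0.05 to -0.15. The measure is log2(CPM + 0.5), which shrinks the differences of low genes before the markers are subtracted. In the edgeR fit Nlrc4 had a log2FC of 1.12 and Nlrp3 one of 0.36. How much of a low gene's value goes with the markers cannot be read from these differences. With the marker level as a covariate in the edgeR fit, Tnf had a log2FC of 0.34 ± 0.12 and Nlrc4 one of 0.94 ± 0.36 (SE), neither passed the threshold (adjusted p-value = 1 for both), and 3 of the 227 genes called in all remained. This covariate moved with the treatment, as the marker ranges above show, and 6 of its 14 genes were themselves called. The fit therefore cannot separate marker level from treatment. The SE of Tnf was 0.12 with the covariate and 0.07 without it, and the lost calls are a description. The part of cell number or of microglial state in the Tnf and Nlrc4 values was not tested.

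**Figure D3:**
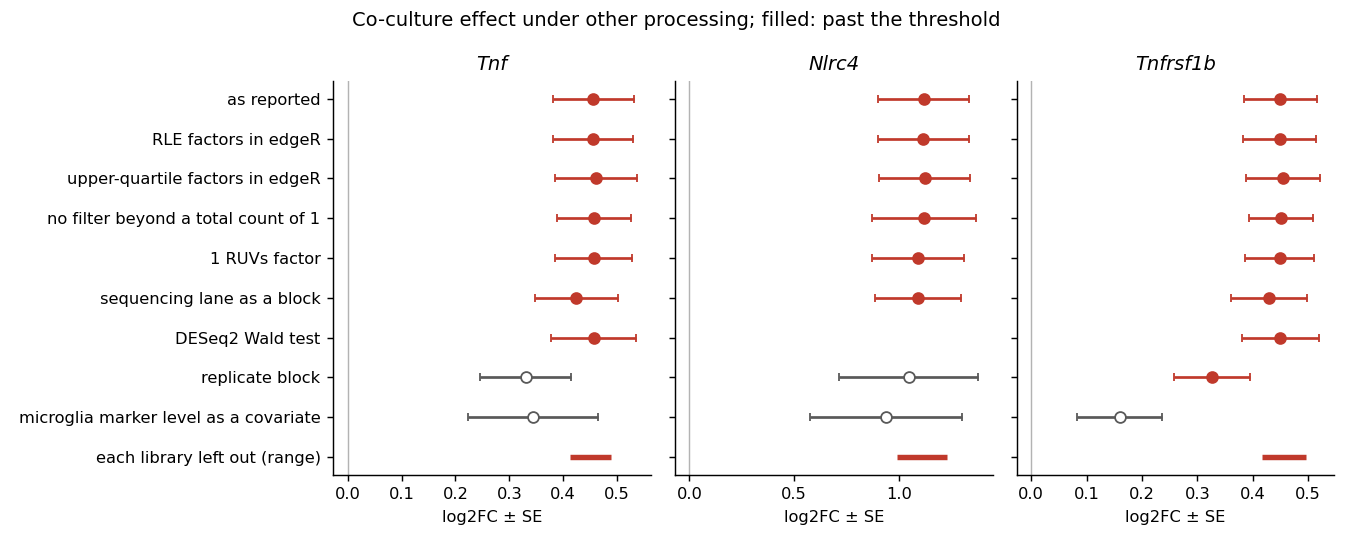
Co-culture log2FC ± SE of Tnf, Nlrc4 and Tnfrsf1b as reported and under other processing, with the range over fits that leave out 1 library (thick line); filled points passed the threshold, and the 3 horizontal axes have different scales. Values stay between 0.41 and 0.49 for Tnf without any 1 library and fall to 0.34 with the microglia marker level as a covariate.

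The wider pathway was read from a list of 66 genes in 6 roles, of which 49 were tested in the co-cultures. Of these 1 was called higher and 0 lower, against 0.846% and 0.556% of all 16193 genes tested, so the count is a description. The called gene was Tnfrsf1b, which encodes TNF receptor 2, the receptor found mainly on immune cells. It ranged from 7.74 to 11.0 CPM (median 8.79) in sc-control and from 11.4 to 14.0 CPM (median 11.9) after anti-miR-99b (log2FC 0.45 ± 0.07 SE, adjusted p-value = 0.000393 by edgeR). The groups did not overlap, which held for 0.58% of all genes tested. Tnfrsf1b was higher after anti-miR-99b in each of the 4 lanes, by 0.31–0.67 on the log2 scale. Set against the microglia markers of its library, the difference went from 0.44 to 0.24, with 6 of 7 libraries above all of the sc-control libraries, and with the markers as a covariate it no longer passed (log2FC 0.16, adjusted p-value = 1). That fit cannot separate marker level from treatment, as stated above. By role, 0 of 9 genes of IL-1 receptor signalling, 1 of 11 of TNF receptors and signalling, 0 of 9 of NF-kB and its feedback genes, 0 of 16 of other inflammasome sensors and pyroptosis genes, 0 of 2 IL-1 family receptors and 0 of 2 further IL-1 family ligands were called. The median log2FC over the 49 genes was 0.05. In the same role Birc3, a survival factor induced by NF-kB, had a log2FC of 0.24 (adjusted p-value = 0.287) and Ripk1, a kinase of the TNF receptor complex, one of 0.12 (0.319).

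In microglia cultured alone none of the 10 genes passed the threshold. All were well above the filter on low counts there, on 157–3105 reads per library, and 0 of 10 was called, against 0.435% of 14953 genes called higher and 0.0535% called lower (adjusted p-value under 0.1, log2FC beyond 0.1). An unadjusted p under 0.05 was reached by 1 of the 10, against 964 of all 14953 genes tested. No other tool or normalization called any member, other than the fit on libraries that share a number. The groups overlapped for every member, while 3.44% of all genes tested did not overlap. The members' log2FC ran from -0.13 to 0.14 with a median of 0.01.

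Tnf was at 38.7, 37.4, 37.3 and 35.9 CPM in the anti-miR-99b microglia (replicates 1, 3, 4 and 5) and at 40.6, 35.5, 38.02 and 34.2 CPM in sc-control (replicates 2, 3, 4 and 6). The anti-miR-99b values lie inside the sc-control range. The fold was 1.01 with a 95% confidence interval of 0.944–1.08, which does not reach the 1.23 at the lower end of the co-culture interval. These intervals come from separate fits. The joint fit given below called no difference for Tnf between the co-cultures and the microglia (adjusted p-value = 0.130 by edgeR). Nlrc4, on 359–591 reads, was at 16.8, 15.6, 17.0 and 15.1 CPM against 16.9, 15.6, 15.6 and 15.9 CPM, a fold of 1.01 (0.933–1.09). Il1b was at 11.0, 13.3, 11.2 and 11.0 CPM against 12.7, 12.9, 10.0 and 12.2 CPM, a fold of 0.976 (0.871–1.09).

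The member with the smallest p in microglia was Il1rn, the antagonist. Its 4 anti-miR-99b libraries stood at 31.4, 32.3, 32.02 and 27.5 CPM and its 4 sc-control libraries at 30.3, 28.4, 25.3 and 28.5 CPM. Of the former 3 were above all of the latter and the remaining one, replicate 5, was not (log2FC 0.14 ± 0.05 SE, unadjusted p = 0.0192, adjusted p-value = 0.654 by edgeR). Il1a pointed the other way, at 7.52 ± 0.735 against 8.21 ± 0.300 CPM (log2FC -0.13 ± 0.08 SE, adjusted p-value = 0.868). The inflammasome genes did not pass either. Nlrp3 was at 62.5 ± 2.27 CPM after anti-miR-99b and 60.6 ± 0.499 CPM in sc-control, and the adaptor Pycard at 35.1 ± 2.12 against 34.5 ± 1.37 CPM. The protease Casp1 was at 89.0 ± 3.25 against 88.7 ± 3.57 CPM and its substrate Gsdmd at 80.4 ± 0.891 against 79.8 ± 3.55 CPM. For Nlrp3, Pycard, Casp1 and Gsdmd the 95% confidence intervals of the log2FC lay between -0.07 and 0.12, so changes beyond 1.09 times were outside them. The microglia markers differed by 0.02 in mean log2 level between these groups.

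**Figure D4:**
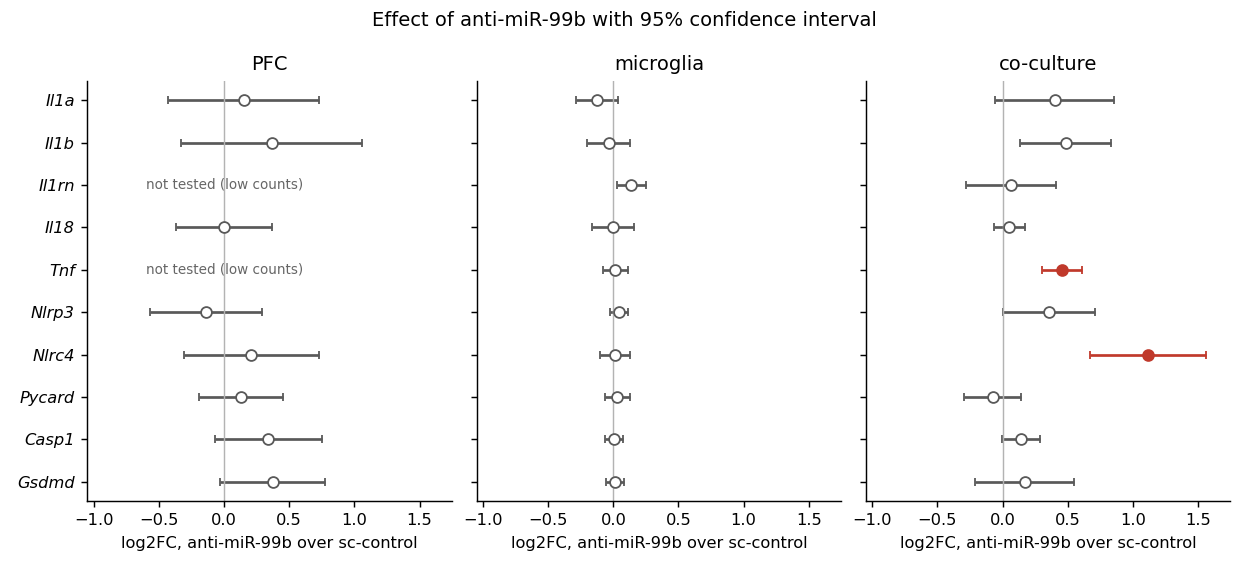
The log2FC of anti-miR-99b over sc-control for each gene (points) with its 95% confidence interval (bars) in the PFC, the microglia and the co-cultures; filled red points passed the threshold of their experiment. Intervals are narrowest in the microglia, where all lie between -0.29 and 0.25, and Tnf (0.46) and Nlrc4 (1.12) in the co-cultures are the points that passed.

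Of the 56 pathway genes tested in the microglia 0 was called, with a median log2FC of 0.01. An unadjusted p under 0.05 by edgeR was reached by 6 of them, against 964 of all 14953 genes tested. The count of called genes rested on single libraries. Without sc-control replicate 2 it was 6 (Myd88, Nfkb2, Nfkbia, Ninj1, Nlrc5 and Relb), and without anti-miR-99b replicate 3 it was 1 (Nlrc5, a regulator of MHC class I genes). With all libraries Nlrc5 had a log2FC of 0.16 (adjusted p-value = 0.323 by edgeR), and Nfkb2 and Relb, which form the non-canonical NF-kB dimer, had 0.09 and 0.10.

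In the PFC 8 of the 10 genes could be tested across all genes, and with 3 libraries a group none of them passed the threshold. Il1rn (1–12 reads) and Tnf (3–12 reads) were below the filter on low counts, and of the other 8 none was called, against 0.0864% of 17364 genes called higher and 0% called lower (15 and 0 genes; adjusted p-value under 0.1, log2FC beyond 0.2). None reached an unadjusted p under 0.05. The groups overlapped for all 10, while 13.3% of all genes tested did not overlap. The median log2FC of the 8 was 0.18, and 7 of 8 lay above 0.

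Tnf was at 0.245, 0.429 and 0.0986 CPM after anti-miR-99b (replicates 1, 2 and 3) and at 0.140, 0.106 and 0.233 CPM in sc-control (replicates 2, 3 and 4), and Il1rn at 0.163, 0.429 and 0.132 CPM against 0.0838, 0.0352 and 0.262 CPM. Neither difference was detectable at this depth (exact permutation test on log2(CPM + 0.5), two-sided, p = 0.5 for Tnf and 0.4 for Il1rn, n = 3 and 3, where 0.1 is the smallest p the design allows). Gsdmd, the pore protein, stood at 6.04, 7.40 and 5.75 CPM against 4.30, 4.12 and 6.35 CPM (log2FC 0.37 ± 0.18 SE, adjusted p-value = 0.660 by edgeR). Casp1 stood at 2.61, 2.93 and 3.16 CPM against 1.84, 2.25 and 2.80 CPM (log2FC 0.34 ± 0.18 SE, adjusted p-value = 0.671). For both, sc-control replicate 4 was the control library within the anti-miR-99b range. Il1b, on 13–26 reads, had a log2FC of 0.37 with a 95% confidence interval of -0.33 to 1.06, and Nlrc4, on 20–31 reads, one of 0.21 (-0.31 to 0.73). Il18 stood at 8.13, 12.9 and 13.4 CPM after anti-miR-99b around the 12.4, 10.6 and 11.4 CPM of sc-control (log2FC 0.00059, 95% confidence interval -0.37 to 0.37). Nlrp3 was the 1 tested gene below 0, at 1.51, 1.47 and 1.32 CPM against 1.31, 1.76 and 1.66 CPM (log2FC -0.14 ± 0.19 SE), and Pycard and Il1a had 0.13 ± 0.14 and 0.15 ± 0.26. The interval of Il1b includes its co-culture value of 0.48. That of Nlrc4 ends below its co-culture value of 1.12 but overlaps the co-culture interval of 0.67 to 1.56. The fit over all 29 libraries, given below, called no difference for Nlrc4 between co-culture and PFC (adjusted p-value = 0.154 by edgeR).

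Of the 53 pathway genes tested in the PFC 0 was called. An unadjusted p under 0.05 by edgeR was reached by 11 of them, against 1326 of all 17364 genes tested. A log2FC above 0 was seen for 41 of the 53 and for 50.6% of all genes, with a median of 0.12 against 0.0025 for all genes. Of the microglia markers of these libraries 13 of 15 lay above 0 as well, with a median log2FC of 0.24, 6 reached an unadjusted p under 0.05 and 0 was called, and their part in the pathway values was not tested. Nlrc5 (log2FC 0.96, adjusted p-value = 0.358 by edgeR), Traf1, an adaptor of TNF receptors (0.81, 0.393), Ripk1 (0.79, 0.234) and Nlrp1b, a further inflammasome sensor (0.78, 0.342) lay furthest above 0 among those 11. Without sc-control replicate 4 the count was 5 (Naip2, Nfkb2, Nlrc5, Ripk1 and Traf1), and in all 201 genes were called in place of 15. That library also had the highest microglia marker level of the controls, 5.21 in mean log2, against 4.79 at the lowest and 5.04–5.24 in the anti-miR-99b libraries.

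A single fit over all 29 libraries tested whether the effect of anti-miR-99b differed between experiments. The effect on Nlrc4 was larger in the co-cultures than in the microglia, by 1.08 ± 0.21 on the log2 scale (SE, adjusted p-value = 0.0171 by edgeR), and 0.116% of 18963 genes tested differed in this way. The call rested on 1 library: without anti-miR-99b co-culture replicate 7 the difference was 0.96 and the adjusted p-value 0.124. For Tnf the difference was 0.42 ± 0.10 (adjusted p-value = 0.130), which did not pass. It did pass without sc-control co-culture replicate 2 (adjusted p-value = 0.0909), without PFC anti-miR-99b replicate 3, without PFC sc-control replicate 4, with DESeq2 (adjusted p-value = 0.0132) and without the filter on low counts (adjusted p-value = 0.011). Between PFC and microglia 0.933% of genes differed, and between co-culture and PFC 1.95%, with 0 of the 10 among them. Without PFC sc-control replicate 4 Gsdmd differed between PFC and microglia, and without PFC anti-miR-99b replicate 3 Nlrc4 differed between co-culture and PFC (adjusted p-value = 0.0391). For Tnf the call thus depended on single libraries and settings, and for the 8 genes other than Tnf and Nlrc4 the effect in co-culture and in microglia alone did not differ past the threshold in any of these fits. Microglia markers differed by 0.20 in mean log2 level between the co-culture groups and by 0.02 between the microglia groups. Their part in these differences was not tested.

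Genes that varied most like Il1b, Il1rn and Casp1 from library to library were listed after the group means had been subtracted, by Pearson's r of log2(CPM + 0.5), as a description only. Over the 15 co-culture libraries they were Tmem50b (r = 0.880), Dus4l (0.826) and Cdk7 (0.825) for Il1b, Lipa (0.836), Csf1r (0.825) and Atg4b (0.809) for Il1rn, and Hadhb (0.837), Shc1 (0.818) and Gm49396 (0.818) for Casp1. Csf1r, the CSF1 receptor of microglia, and Lipa, a lysosomal lipase, are the ones with a known place in macrophages. Over the 8 microglia libraries they were Gm15772 (r = 0.983), Mcemp1 (0.965) and Rnf13 (0.963) for Il1b, 2610528A11Rik (0.976), Hspa5 (0.963) and Ppia (0.961) for Il1rn, and Gm16201 (0.989), Tmx1 (0.974) and Ptges3 (0.974) for Casp1. The points share depth and lane, between 12954 and 14186 genes were compared each time, and no gene was on both lists.

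Reads of overlapping genes limit a few of these values. Il1a shares 222 exon bases with Gm14023, Pycard 485 with Gm45205 and Il1b 25 with Il1bos, each on the opposite strand, and without a known strand setting such reads cannot be told apart. These partners held at most 12, 10 and 8 reads in any library. Tnf, Nlrc4, Nlrp3, Casp1, Gsdmd and Il1rn share no exon with another gene in the table. Gene positions on GRCm38 are chr17:35199381-35202007 for Tnf, chr17:74425438-74459142 for Nlrc4 and chr2:129364570-129371139 for Il1b, all on the minus strand.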

How the data were processed

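RNA of 29 mouse libraries was sequenced (6 PFC, 8 microglia, 15 co-culture), and groups, replicate numbers and lanes were taken from the labels. The authors made poly(A) libraries, sequenced single reads of 50 bases, aligned them with STAR 2.5.2b to mm10 and counted them with featureCounts 1.5.1, per the submitters' processing notes. They deposited raw counts per gene; the annotation release and strand setting are not given in the sources used here. Symbols came from GENCODE M21 (48349 of 48709 identifiers).

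Members and gene lists were chosen with earlier results of these data known. Each experiment was fitted alone in R 4.3.3 with edgeR 4.0.16 (filterByExpr, TMM, quasi-likelihood test, Benjamini-Hochberg adjustment). Thresholds were those of the study, and for the microglia, where none is stated, 0.1 for the adjusted p-value and for the log2FC. A joint fit gave differences between experiments. SE is the log2FC over the square root of F, and confidence intervals cover 95%. With no filter beyond a total count of 1, other normalizations, DESeq2 1.42.0, 1 RUVs factor, lane, replicate number, marker level and left-out libraries served as alternatives. The fits were tested on simulated data. Genes named are the 10 members, pathway genes past the threshold, markers that moved, overlapping genes, and the 3 most alike for Il1b, Il1rn and Casp1; other pathway genes were named after their values were seen. Neither labels nor methods say that microglia or co-culture libraries came from separate animals, so p-values measure the spread between these libraries. Of the 66 pathway genes 65 were matched. Sequences were credited to RefSeq or GENCODE, and 10 of 10 members had a promoter window.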

Additional observations from a re-analysis of the deposited data

Results flagged for a closer look

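The effect of anti-miR-99b on Nlrc4 differed between co-cultures and microglia (difference of log2FC 1.08 by the joint edgeR fit). The call was lost without anti-miR-99b co-culture replicate 7 and with the replicate block. Nlrc4 held only 3–20 reads per co-culture library. Of 40 groups of 4 to 8 libraries, 4 held a library set apart from the rest of its group by Dixon's criterion, which chance alone flags in about 1 of 20 groups. Nlrc4 was at 0.851 CPM in anti-miR-99b co-culture replicate 7, where the next library was at 0.542 CPM. Il1a was at 1.36 CPM in anti-miR-99b co-culture replicate 10, where the next was at 0.872 CPM. Il1b was at 13.3 CPM in anti-miR-99b microglia replicate 3, next to 11.2 CPM, and Il18 at 9.20 CPM in sc-control microglia replicate 3, next to 7.63 CPM. The Il1a, Il1b and Il18 groups overlapped those they were compared with.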

How the results depend on the processing

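Tnf, Nlrc4 and Tnfrsf1b kept their direction in the co-cultures under every alternative tried and their call under RLE and upper-quartile factors, no filter, 1 RUVs factor, the lane as a block and each library left out. For Nlrc4, which passed the filter only through its anti-miR-99b libraries, the repeated call is a description and no support. DESeq2 called 1 of the 10 members there (Tnf) and gave no adjusted p-value for Nlrc4. With the microglia marker level as a covariate 0 members and 0 pathway genes were called in the co-cultures, and log2FC turned for Il1a (-0.30), Il1rn (-0.38), Casp1 (-0.10) and Gsdmd (-0.14), none of them called in either fit. In the PFC the same covariate gave -0.077 for Il1a and -0.11 for Il18. The marker level of 6 of 7 anti-miR-99b co-cultures lay above all sc-control co-cultures, and the cause was not tested. The co-culture fit with this covariate thus cannot separate marker level from treatment, and its lost calls are a description.

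Of the pathway genes in the PFC 2 were called by DESeq2, 4 without the filter, 4 with 1 RUVs factor and 2 with the lane as a block, against 0 as reported. Without the filter the microglia gave 1 and the co-cultures 2 (Tnfrsf1b and Txnip), and with 1 RUVs factor the co-cultures gave the same 2. The members whose effect differed between co-cultures and microglia were 2 by DESeq2 and 2 without the filter, and DESeq2 called 1 between co-cultures and PFC. Over all alternatives, the genes called in all lay between 1 and 518 in the PFC (15 as reported), 2 and 409 in the microglia (73) and 3 and 515 in the co-cultures (227).

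Il18 in the PFC had a log2FC of -0.0040 with RLE factors, -0.0056 with DESeq2, -0.015 without the filter and -0.0056 with the lane as a block. In the microglia it was -0.0017 with RLE factors, -0.0042 with upper-quartile factors, -0.00094 with DESeq2 and -0.0021 with the lane as a block. All of these are close to 0.

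With the replicate block, restricted to libraries with a number that both treatments share, 1 member (Gsdmd) and 9 pathway genes were called in the PFC, 1 member (Il1rn) and 1 pathway gene in the microglia, and 0 members in the co-cultures, where Tnf had an adjusted p-value of 0.0861 and Nlrc4 of 0.252 by edgeR, and 0 members differed between co-cultures and microglia. In the microglia Il1b was then at 0.093 and Il18 at -0.11. The numbers were not shown to pair the libraries, since the correlation of same-numbered deviations was -0.28 to 0.05 in the 8 pairs, and this fit also has fewer libraries.

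With each library left out in turn, the pathway genes called ranged from 0 to 5 in the PFC and from 0 to 6 in the microglia. The members whose effect differed ranged from 0 to 2 between co-cultures and microglia, 0 to 1 between PFC and microglia and 0 to 1 between co-cultures and PFC. In the PFC the log2FC ranged from -0.12 to 0.19 for Il18 and -0.034 to 0.32 for Il1a. In the microglia it ranged from -0.031 to 0.071 for Il18, -0.11 to 0.0027 for Il1b, -0.025 to 0.058 for Tnf, -0.015 to 0.041 for Nlrc4, -0.015 to 0.036 for Gsdmd, -0.021 to 0.025 for Casp1 and -0.0020 to 0.054 for Pycard, and in the co-cultures from -0.011 to 0.19 for Il1rn. The difference in the effect on Tnf ranged from -0.017 to 1.01 between PFC and microglia and from -0.59 to 0.44 between co-cultures and PFC. The depth limits Tnf and Il1rn in the PFC and Nlrc4 in the co-cultures, which rest on 20 reads or fewer per library. The exact permutation test of Tnf and Il1rn in the PFC cannot go below 0.1 with 3 libraries a group, so its values with log2(CPM + 1) or without TMM say nothing about stability.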
